A study of Mus musculus with 6 samples.

Results

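The subunits of the mitochondrial respiratory chain and of ATP synthase were described from RNA of cardiomyocyte-enriched mouse heart cells. Members were all genes whose symbol in the platform's annotation names a subunit of complex I (Ndufa, Ndufb, Ndufc, Ndufs or Ndufv and a number), complex III (Uqcr), complex IV (Cox4 to Cox8) or complex V (Atp5), without the Ndufaf assembly factors. A member also needed a probe detected (p under 0.05) on 2 or more of the 6 arrays. Of 74 genes with such symbols 70 passed, among 10538 genes tested in all: 34 of 35 in complex I, 7 of 7 in complex III, 13 of 16 in complex IV and 16 of 16 in complex V. Just inside the threshold lay Cox6b2, detected on the 2 sham arrays only, and Uqcrfs1 was detected on the 4 arrays of TAC_BIX and sham. Just outside it was Cox4i2, whose probe was detected on 1 array, and Cox7b2, Cox8c and Ndufs1 were detected on 0 arrays. The other 68 members were detected on all 6 arrays. The platform's symbols place Ndufa4 in complex I, although its protein is now assigned to complex IV. They also list Ndufs5-ps, which the annotation gives as a transcribed pseudogene of the complex I subunit gene Ndufs5, and whether its probe also binds Ndufs5 transcripts was not tested.

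All mice were C57BL/6J, and each group had 2 arrays, described in the labels as biological replicates. TAC_BIX cells came from mice that had transverse aortic constriction, a narrowing of the aorta that loads the left ventricle with pressure, and received BIX-01294 for 1 week from osmotic pumps under the skin. TAC_DMSO cells came from mice given the solvent DMSO after the same constriction, and sham cells from mice with sham surgery, for which no solvent is named. BIX-01294 inhibits G9a and GLP, enzymes that methylate histone H3 on lysine. Constriction and solvent therefore cannot be told apart in the comparison of TAC_DMSO with sham. The labels state neither the age of the mice nor how many stand behind an array, so p-values describe the spread between these 6 arrays.

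Heart muscle makes most of its ATP by oxidative phosphorylation. Complexes I, III and IV pass electrons from NADH to oxygen and pump protons across the inner mitochondrial membrane, and complex V, the ATP synthase, lets the protons flow back and makes ATP. Each complex joins a catalytic core to many small accessory proteins that assemble, stabilise or tune it; a few core proteins are encoded by mitochondrial DNA, and the members described here are all encoded in the nucleus.

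The arrays detected between 36.7% and 40.9% of 45281 probes each. Cardiomyocyte markers were abundant on every array: 14 of 15 listed genes were measured, among them Myh6, Actn2 and Tnnc1 at log2 signals of 14.56 to 14.93. The highest normalized log2 signal was 14.98 on every array, and 20 members averaged 14 or more, so differences of the brightest members can be compressed. Signals of different probes are not compared below as levels of their genes, and differences are taken within a probe. Probe signals also sort members into ranges and are summed over lists on each array, where the brightest probes weigh most.

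The 3 comparisons share arrays with each other and are given side by side. Subunit transcripts were lower in TAC_BIX than in sham: 25 of 70 members fell at an adjusted p under 0.05 and 0 rose, while 3.91% of all genes tested were called lower and 2.74% higher. One of the 25, Cox6b2, had passed the detection filter through the sham arrays alone, which favoured a lower call, and without it 24 of 69 members fell. The members' median log2 difference was -0.67, beside -0.0036 for all genes, and 58 of 70 members lay below 0. Values of both TAC_BIX arrays lay below both sham arrays for 56 members, and 28.6% of all genes separated in this way. In bulk RNA, fewer cells of a type and less RNA per cell cannot be told apart. With any single array left out the median stayed between -0.80 and -0.52. Leaving out a TAC_BIX or sham array leaves 1 array in that group, which is then assumed to vary like the other groups, and fewer genes of any kind were called in such fits than the 701 with all arrays. Members and all genes called numbered 15 and 216 without TAC_BIX replicate 1, 0 and 0 without TAC_BIX replicate 2, 0 and 2 without sham replicate 1, and 0 and 0 without sham replicate 2. Scaling each array to one median, in place of giving all arrays one distribution, shifted the median of all genes by -0.13, to -0.14. It called 48 members lower, with a median of -1.04 (-0.90 relative to all genes), and split all calls into 371 higher and 923 lower, against 289 higher and 412 lower.

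TAC_BIX against TAC_DMSO gave 0 calls among members and 0% called lower over all genes at an adjusted p under 0.05. At an unadjusted p under 0.05, 37 members were lower and 1, Uqcrc1, was higher, beside 10.7% of all genes lower. The members' median was -0.45, beside 0.033 for all genes, with 57 of 70 below 0. For 48 members both TAC_BIX arrays lay below both TAC_DMSO arrays, against 23.0% of all genes. The smallest adjusted p among members was 0.0671, that of Ndufb4 and Cox7a2. This count depended on the processing. With an intensity trend and robust prior, 27 members and 4.78% of all genes were called lower. Members and all genes called lower were 24 and 4.46% with quantile normalization alone, 21 and 3.44% with median scaling, 20 and 3.81% with the authors' values, 12 and 3.71% when probes had to be detected on all 6 arrays, and 19 and 4.14% under a background offset of 50.

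In TAC_DMSO against sham 0 members were called, beside 0.199% of genes called lower and 0.209% higher. There the median was -0.12, beside -0.014 for all genes, 50 of 70 members were below 0, and 33 separated downwards, beside 29.0% of all genes. Unadjusted p-values under 0.05 were found for 11 members, all lower, beside 11.6% of all genes that were lower at that threshold. Among the 11 were Cox6b2 and Uqcrfs1, which were not detected in TAC_DMSO and passed the filter through other groups. That favoured a lower value in TAC_DMSO, and both genes also count among the 33 and the 50.

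**Figure D1:**
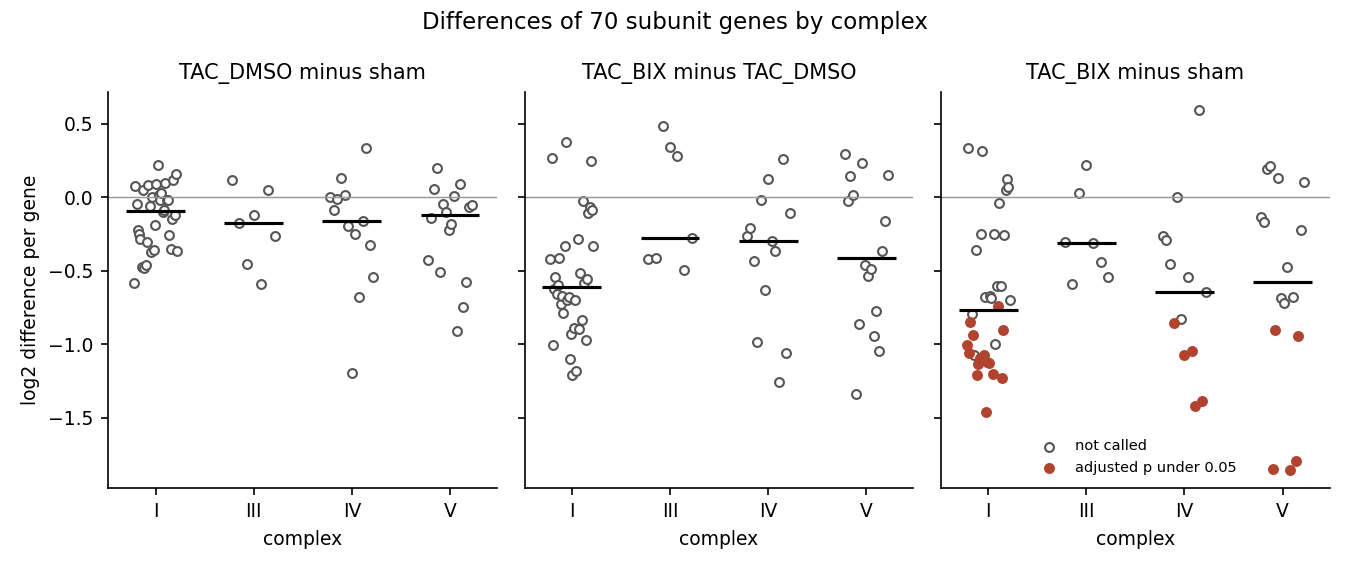
Log2 difference of each of the 70 subunit genes (points) by complex, for TAC_DMSO minus sham, TAC_BIX minus TAC_DMSO and TAC_BIX minus sham; black bars are medians and filled points are genes with a limma adjusted p under 0.05. Filled points appear in the TAC_BIX minus sham panel only, 15 in complex I, 0 in complex III, 5 in complex IV and 5 in complex V.

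Group means stood in the order TAC_BIX below TAC_DMSO below sham for 41 of 70 members, beside 1873 of 10538 genes. In 26 of 70 members all arrays of the 3 groups separated in that order, beside 423 of 10538 genes. The replicates of TAC_BIX were not alike: 57 of 70 members were lower on replicate 2 than on replicate 1. The members' median deviation from each gene's own mean over the 6 arrays was -0.22 and -0.49 on the TAC_BIX arrays, 0.055 and 0.13 on the TAC_DMSO arrays, and 0.28 and 0.24 on the sham arrays (log2). Complex I spanned the widest range, at -0.29 and -0.63 in TAC_BIX, 0.10 and 0.16 in TAC_DMSO, and 0.32 and 0.30 in sham. Complex III deviated by 0.0054 and -0.34 in TAC_BIX, 0.088 and -0.082 in TAC_DMSO, and 0.16 and 0.080 in sham, so that its TAC_BIX and TAC_DMSO arrays overlapped.

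**Figure D2:**
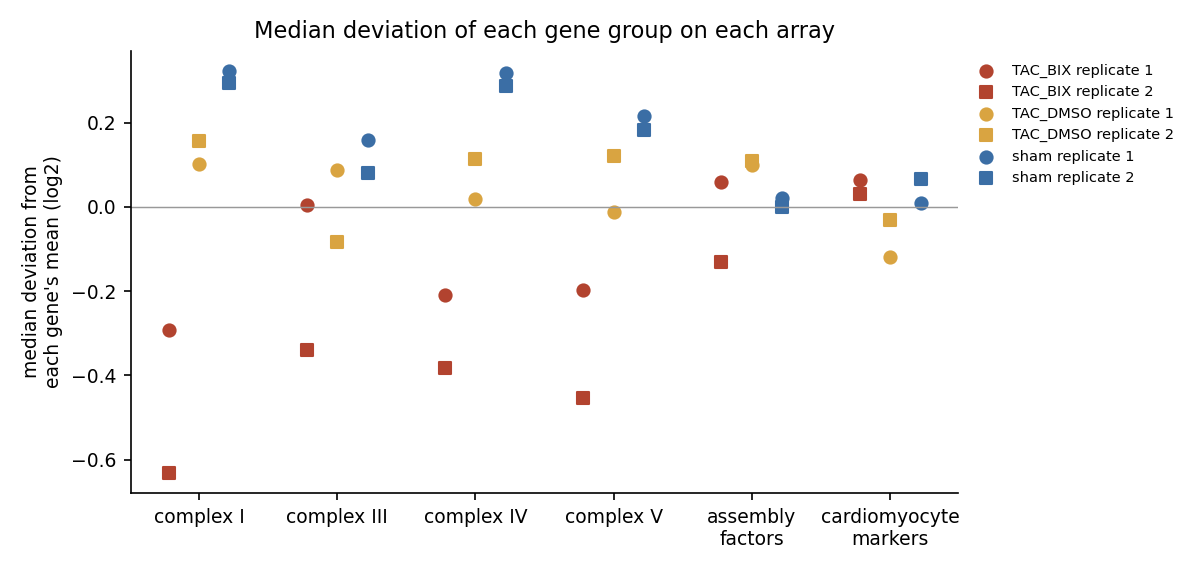
Median deviation (log2) of each gene group from its genes' own means over the 6 arrays, 1 point per array, for the 4 complexes, 41 assembly factors and 14 cardiomyocyte markers. Complexes I, IV and V are lowest on the TAC_BIX arrays and highest on the sham arrays; assembly factors lie between -0.13 and 0.11 and cardiomyocyte markers between -0.12 and 0.067.

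Complex I takes electrons from NADH. Its accessory subunits, which surround the catalytic core, held 15 of the 25 called genes: of 29 measured, 15 fell in TAC_BIX against sham, with a median of -0.91, and 27 lay below 0. Ndufb2, a small subunit of the membrane arm, measured 9.54 and 8.85 in TAC_BIX, 10.23 and 10.35 in TAC_DMSO, and 10.70 and 10.60 in sham (log2 signal). The 3 groups did not overlap, and Ndufb2 was 2.74-fold lower in TAC_BIX than in sham (-1.46 ± 0.24 log2, SE; adjusted p = 0.0233). Against TAC_DMSO its difference was -1.10 ± 0.24 (adjusted p = 0.0741).

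Ndufa5, a subunit of the arm that reaches into the matrix, read 13.06 and 12.63 in TAC_BIX, 13.51 and 13.63 in TAC_DMSO, and 14.07 and 14.02 in sham. It fell by 1.21 ± 0.20 in TAC_BIX against sham (adjusted p = 0.0226), and its second, dimmer probe differed by -2.14. Ndufa6, a matrix-arm subunit that contacts the mitochondrial acyl carrier protein, gave 12.70 and 12.46 in TAC_BIX, 13.26 and 13.25 in TAC_DMSO, and 13.76 and 13.67 in sham. It fell by 1.13 ± 0.17 against sham (adjusted p = 0.0223), and each group separated from the next. Ndufb10 and Ndufa1, both of the membrane arm, showed the same order without overlap, at -1.07 ± 0.18 and -1.004 ± 0.19 in TAC_BIX against sham (adjusted p = 0.0232 and 0.0315).

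Other accessory genes had TAC_DMSO values at or near sham and lower TAC_BIX values. Ndufb4 measured 7.81 and 7.26 in TAC_BIX, 8.58 and 8.91 in TAC_DMSO, and 8.61 and 8.71 in sham. Ndufb7, which lies on the side of the intermembrane space, measured 10.55 and 9.94 in TAC_BIX, 11.34 and 11.51 in TAC_DMSO, and 11.36 and 11.53 in sham. TAC_DMSO and sham overlapped for both genes, and both TAC_BIX arrays were lower. In TAC_BIX against TAC_DMSO the differences were -1.21 ± 0.23 for Ndufb4 and -1.18 ± 0.23 for Ndufb7 (adjusted p = 0.0671 and 0.0689), and against sham both passed, at -1.12 and -1.20 (adjusted p = 0.0333 and 0.0315). Ndufc2 and Ndufa11, accessory subunits of the membrane arm, had the same arrangement, with -0.84 ± 0.17 and -1.01 ± 0.21 against TAC_DMSO (adjusted p = 0.0689 and 0.0712) and -0.74 and -1.06 against sham (adjusted p = 0.0424 and 0.0328).

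The remaining called genes of complex I were Ndufa2, Ndufa7, Ndufa12, Ndufb3, Ndufs6 and Ndufs5-ps, at -1.23 to -0.85 in TAC_BIX against sham. Ndufs6 encodes a zinc-binding subunit needed late in assembly. Ndufb3 differed by -0.93 ± 0.19 against TAC_DMSO (adjusted p = 0.0693), and Ndufs5-ps by -0.97 ± 0.21 (adjusted p = 0.0725). Ndufb5, a membrane-arm subunit, was lower than TAC_DMSO by a similar size (-0.89 ± 0.19; adjusted p = 0.0725), and its difference from sham of -0.67 did not pass (adjusted p = 0.0805). Ndufa4, with 14.19 and 14.005 in TAC_BIX, 14.48 and 14.53 in TAC_DMSO, and 14.42 and 14.48 in sham, differed from sham by -0.36 ± 0.17 (adjusted p = 0.222).

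The catalytic core of complex I, which carries the flavin and the iron-sulfur clusters, had 5 measured genes, and 0 of 5 were called in any comparison. Ndufv1, the NADH-binding flavoprotein subunit, measured 14.28 and 14.28 in TAC_BIX, 14.02 and 14.05 in TAC_DMSO, and 14.20 and 14.11 in sham. Its TAC_BIX values were the highest of the 6, and its difference from sham was 0.13 ± 0.16 (adjusted p = 0.665). Ndufv2, Ndufs3, Ndufs7 and Ndufs8, which hold iron-sulfur clusters or form the matrix arm, differed from sham by 0.07, -0.04, -0.26 and 0.05. The core's median was 0.049 in TAC_BIX against sham, but -0.40 with arrays scaled to one median, when 1 of the 5 was called lower and the accessory median was -1.18. It was -0.067 in TAC_BIX against TAC_DMSO, where the accessory subunits' median was -0.67, and with arrays scaled to one median these were -0.43 for the core and -0.94 for the accessory subunits. The accessory subunits Ndufa9 and Ndufa10 lay on the side of the core, with differences from sham of 0.32 ± 0.21 and 0.34 ± 0.19 (adjusted p = 0.378 and 0.300). The grouping of subunits by position was made after their values were seen, and core against accessory subunits was not tested.

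**Figure D3:**
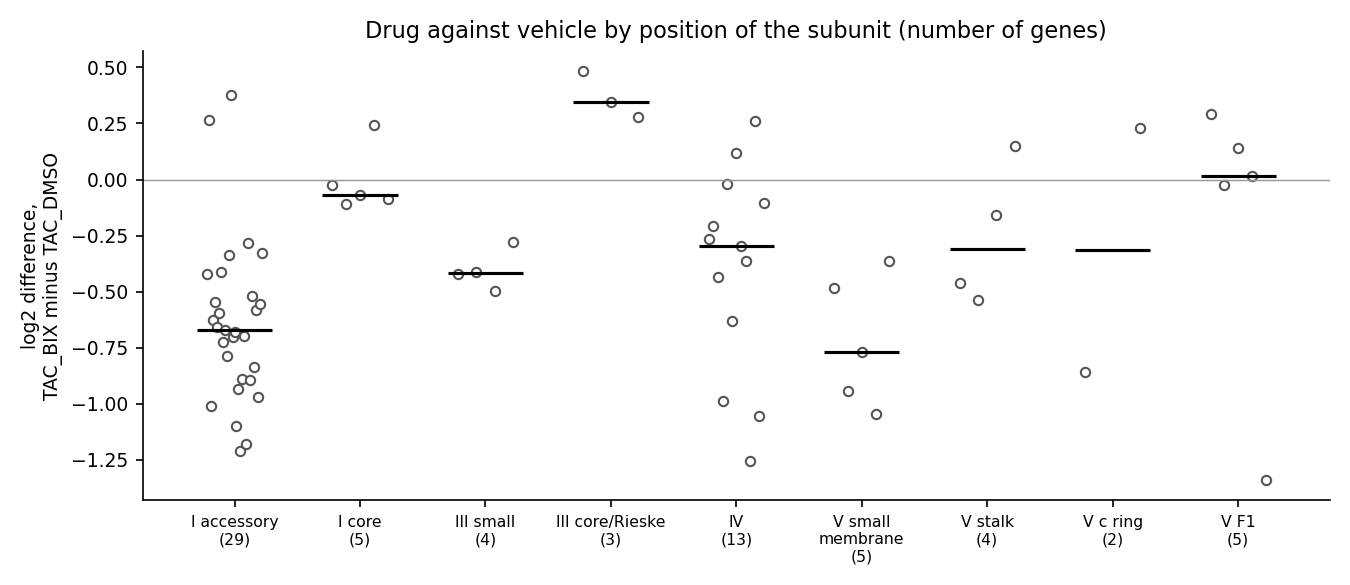
Log2 difference of TAC_BIX minus TAC_DMSO for each of the 70 genes, by position of the subunit in its complex, with the number of genes in brackets and medians as black bars; no gene had an adjusted p under 0.05. Medians are -0.67 for accessory subunits of complex I, -0.067 for its core, and -0.77 for the small membrane subunits of complex V. The core proteins and Rieske protein of complex III have a median of 0.34, and the Rieske gene passed the filter through TAC_BIX and sham arrays only. With arrays scaled to one median the core of complex I was at -0.43 and that of complex III at 0.071. The small membrane subunits of complex V were at -0.49 with quantile normalization alone and -0.52 in the authors' values.

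Complex III passes electrons from ubiquinol to cytochrome c, and 0 of its 7 genes were called in any comparison. Uqcrc1, a core protein, measured 13.86 and 14.11 in TAC_BIX, 13.40 and 13.60 in TAC_DMSO, and 14.05 and 13.86 in sham. TAC_DMSO was below both other groups, which overlapped each other, and with arrays scaled to one median Uqcrc1 turned to -0.44 in TAC_BIX against sham. The difference was 0.48 ± 0.19 in TAC_BIX against TAC_DMSO and -0.45 ± 0.19 in TAC_DMSO against sham (adjusted p = 0.209 in both). Uqcrc2, the other core protein, read 14.78 and 14.81 in TAC_BIX, 14.42 and 14.48 in TAC_DMSO, and 14.76 and 14.38 in sham (0.34 ± 0.19 against TAC_DMSO; adjusted p = 0.356). Uqcrfs1, the Rieske iron-sulfur protein, measured 5.00 and 4.85 in TAC_BIX, 4.75 and 4.54 in TAC_DMSO, and 5.32 and 5.15 in sham, near the lowest detectable signal. It was not detected in TAC_DMSO, at least 1.03-fold lower there than in TAC_BIX and at least 1.28-fold lower than in sham (adjusted p = 0.424 and 0.123). Uqcrfs1 passed the filter through the TAC_BIX and sham arrays alone, which favoured a lower value in TAC_DMSO, so these values are a description. The 4 small subunits, Uqcrh, Uqcrq, Uqcr10 and Uqcr11, differed by -0.59 to -0.30 in TAC_BIX against sham with a median of -0.49, and Uqcr11 had the smallest adjusted p (0.101).

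Complex IV, cytochrome c oxidase, reduces oxygen, and several of its nuclear subunits exist as a general isoform and one of heart and skeletal muscle. Of 13 genes 5 were called lower in TAC_BIX against sham: Cox6a1, Cox7a1, Cox7a2 and Cox7b, and Cox6b2, which only the sham arrays brought past the filter; the median of the complex was -0.65. Cox7a2, the general 7a isoform, measured 8.61 and 7.94 in TAC_BIX, 9.54 and 9.52 in TAC_DMSO, and 9.68 and 9.70 in sham. Both TAC_BIX arrays lay far below the other 4, and it was 2.67-fold lower than sham (-1.42 ± 0.24 log2; adjusted p = 0.0233) and differed by -1.25 ± 0.24 from TAC_DMSO (adjusted p = 0.0671). Cox7a1, the muscle 7a isoform, gave 14.12 and 13.41 in TAC_BIX, 14.09 and 14.17 in TAC_DMSO, and 14.90 and 14.72 in sham. Here TAC_BIX overlapped TAC_DMSO, and both lay below sham (-1.04 ± 0.25 in TAC_BIX, adjusted p = 0.0493; -0.68 ± 0.25 in TAC_DMSO, adjusted p = 0.167).

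The isoforms of subunit 6a differed in value. Cox6a1, the general form, measured 10.92 and 10.63 in TAC_BIX, 11.88 and 11.64 in TAC_DMSO, and 11.54 and 11.72 in sham. It fell by 0.85 ± 0.19 against sham (adjusted p = 0.0424), and its difference from TAC_DMSO was -0.99 ± 0.19 (adjusted p = 0.0686). Cox6a2, the heart form, read 14.90 and 14.71 in TAC_BIX, 14.75 and 14.90 in TAC_DMSO, and 14.68 and 14.93 in sham. All 3 groups of Cox6a2 overlapped, close to the highest signal of the arrays, and its difference from sham was -0.00095 ± 0.18 (adjusted p = 0.998). Cox8b, the muscle form of subunit 8, had 13.9995 and 13.64 in TAC_BIX, 13.87 and 13.97 in TAC_DMSO, and 14.48 and 14.45 in sham. As for Cox7a1, TAC_BIX and TAC_DMSO overlapped below sham, but its differences did not pass (-0.65 ± 0.19, adjusted p = 0.0820; -0.54 ± 0.19 in TAC_DMSO, adjusted p = 0.153). Differences between isoforms were not tested, since each is read by its own probe.

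**Figure D4:**
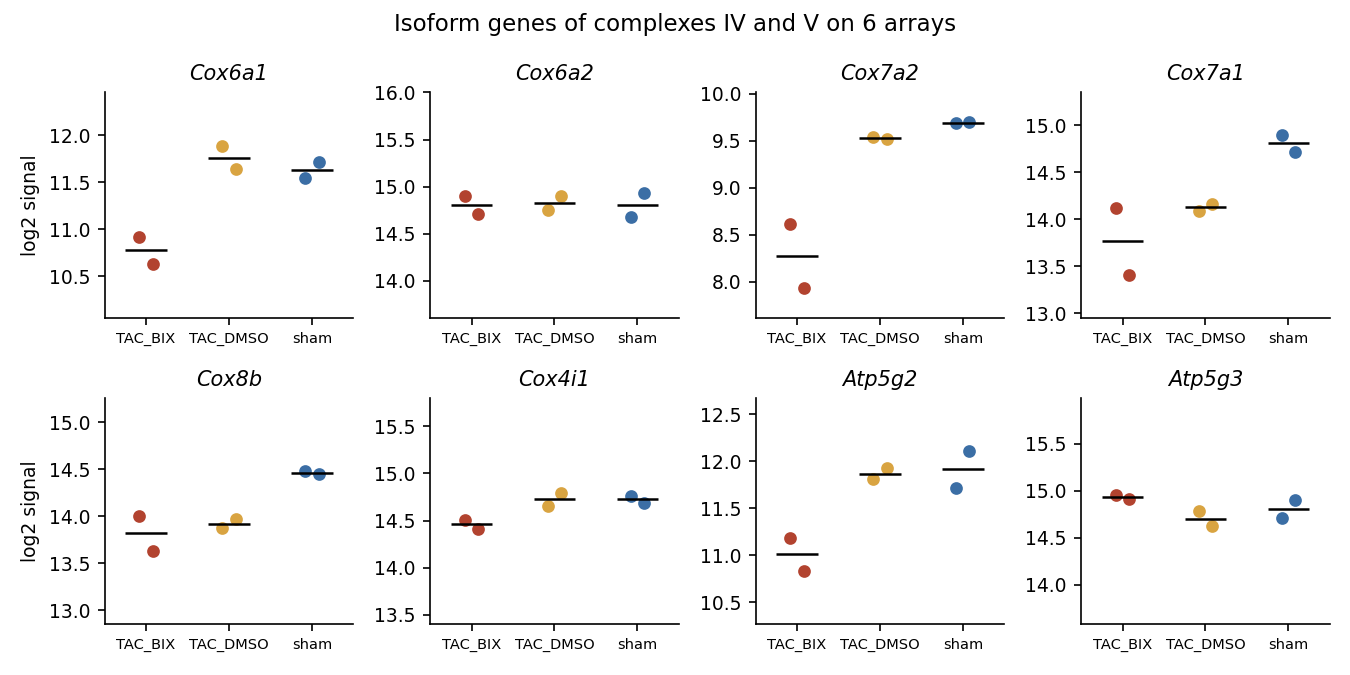
Normalized log2 signal of 8 isoform genes of complexes IV and V on the 6 arrays, with group means as black bars; every panel spans the same number of log2 units, and levels of different panels are not comparable. Cox6a1, Cox7a2 and Atp5g2 are lower on both TAC_BIX arrays, Cox7a1 and Cox8b are lower in TAC_BIX and TAC_DMSO than in sham, Cox6a2 lies between 14.68 and 14.93 and Atp5g3 between 14.62 and 14.95 over all arrays.

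Cox7b, a small membrane subunit, measured 8.63 and 8.11 in TAC_BIX, 9.37 and 9.48 in TAC_DMSO, and 9.84 and 9.67 in sham. Its groups separated in that order, and it fell by 1.38 ± 0.22 in TAC_BIX against sham (2.61-fold; adjusted p = 0.0223). Cox6b2, known as the testis isoform of 6b, was not detected in TAC_BIX (4.58 and 4.51) or TAC_DMSO (4.40 and 4.45) and stood at 5.80 and 5.44 in sham. It was at least 1.74-fold lower in TAC_BIX and at least 1.67-fold lower in TAC_DMSO than in sham (adjusted p = 0.0252 and 0.0539), but a gene kept for its sham signal alone had to differ, so these values are a description. Cox6b1, the general 6b isoform, differed from sham by -0.82 ± 0.20 in TAC_BIX (adjusted p = 0.0548). The nuclear subunits Cox4i1, Cox5a and Cox5b differed by -0.27, -0.29 and -0.45 and did not pass. Cox7a2l ran the other way, with 12.46 and 12.64 in TAC_BIX, 12.27 and 12.30 in TAC_DMSO, and 11.90 and 12.01 in sham. Its groups separated, with the highest values in TAC_BIX, and its difference from sham of 0.59 ± 0.17 did not pass (adjusted p = 0.0801), while it passed in 4 of 17 other settings of the processing (adjusted p = 0.0198 to 0.0325).

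Complex V joins the catalytic F1 head to a proton-driven ring in the membrane. Of 16 genes 5 fell in TAC_BIX against sham: Atp5e, Atp5g2, Atp5k, Atp5md and Atp5mpl. Atp5k, subunit e, which helps ATP synthases pair into dimers, measured 6.02 and 5.68 in TAC_BIX, 6.75 and 6.82 in TAC_DMSO, and 7.71 and 7.69 in sham. The 3 groups separated by wide gaps, and Atp5k was 3.61-fold lower in TAC_BIX than in sham (-1.85 ± 0.18 log2), with the smallest adjusted p of all members (0.0136). TAC_DMSO lay about midway, at -0.91 ± 0.18 from sham, and TAC_BIX differed from TAC_DMSO by -0.94 ± 0.18, and neither passed (adjusted p = 0.0673 and 0.0686).

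Promoters were picked for the called member with the largest fall in TAC_BIX against sham in each of complexes I, IV and V. For complex III the member with the largest difference above TAC_DMSO was picked. These were Ndufb2, Cox7a2, Atp5k and Uqcrc1. The promoter of Cox7a2 held no match of the motifs below and is not printed. The sequences are RefSeq's for GRCm38.p6, from 250 bases before to 50 after the annotated start, 5′ to 3′ on the gene's strand. Capitals mark motifs searched on both strands: GCATGCGC of NRF1, CCGGAAG of ETS factors such as GABP, ATGGCGG of YY1 and AAGGTCA of the estrogen-related receptors. In Atp5k and Uqcrc1 the NRF1 letters match on both strands in overlap, as 1 palindromic stretch, upstream of the start in Atp5k and downstream of it in Uqcrc1. Atp5k also holds an ETS match, on the reverse strand, and a match of the estrogen-related receptors, and Ndufb2 holds the last of these alone. The regions are chr5:108434350-108434649 on the minus strand for Atp5k, chr9:108936398-108936697 on the plus strand for Uqcrc1, and chr6:39592315-39592614 on the plus strand for Ndufb2.
Atp5k: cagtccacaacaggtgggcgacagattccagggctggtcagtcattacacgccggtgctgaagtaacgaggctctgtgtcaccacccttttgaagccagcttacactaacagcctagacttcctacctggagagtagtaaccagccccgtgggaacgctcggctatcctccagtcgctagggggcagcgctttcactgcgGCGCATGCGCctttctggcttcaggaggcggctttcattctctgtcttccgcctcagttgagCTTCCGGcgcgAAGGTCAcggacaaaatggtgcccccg
Uqcrc1: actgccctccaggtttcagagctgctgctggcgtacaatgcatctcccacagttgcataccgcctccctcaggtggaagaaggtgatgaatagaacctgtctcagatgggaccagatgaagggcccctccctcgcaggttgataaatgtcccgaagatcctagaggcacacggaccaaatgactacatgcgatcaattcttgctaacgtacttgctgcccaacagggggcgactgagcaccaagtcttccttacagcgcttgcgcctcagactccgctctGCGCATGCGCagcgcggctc
Ndufb2: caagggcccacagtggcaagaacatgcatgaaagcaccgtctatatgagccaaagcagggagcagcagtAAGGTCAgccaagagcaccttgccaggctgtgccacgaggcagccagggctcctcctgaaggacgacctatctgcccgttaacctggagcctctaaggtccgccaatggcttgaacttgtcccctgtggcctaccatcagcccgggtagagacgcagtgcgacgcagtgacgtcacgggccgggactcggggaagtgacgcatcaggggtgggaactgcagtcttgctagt

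Promoters were listed for 60 of the 70 members. NRF1 letters were found in 9 of the 60, beside 2.81% of 27025 promoters of the same length. ETS letters were found in 13 (21.7%, beside 9.12%), YY1 letters in 9 (beside 4.19%) and those of the estrogen-related receptors in 6 (beside 4.66%). Of the 22 members called lower in TAC_BIX against sham with a promoter listed 14 held at least 1 of the 4 motifs, and of the 38 not called 16 did, beside 18.7% of all promoters. A match is a description of letters in this window and not a binding site.

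Among the other membrane subunits of complex V, Atp5md, also known as DAPIT, measured 7.80 and 6.83 in TAC_BIX, 8.23 and 8.50 in TAC_DMSO, and 8.98 and 9.25 in sham. The TAC_BIX arrays were far apart, and Atp5md fell by 1.79 ± 0.31 against sham (3.47-fold; adjusted p = 0.0252). Atp5mpl, a small membrane protein bound to the synthase, gave 13.71 and 13.22 in TAC_BIX, 13.85 and 13.81 in TAC_DMSO, and 14.46 and 14.36 in sham, and fell by 0.94 ± 0.21 (adjusted p = 0.0412). Atp5l, subunit g and a partner of subunit e, differed from TAC_DMSO by -0.77 ± 0.19 and from sham by -0.68 ± 0.19 (adjusted p = 0.0925 and 0.0752). All 5 small membrane subunits lay below sham in TAC_BIX, 3 of them called, with a median of -0.94.

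The F1 head held 1 called gene of 5, Atp5e, which encodes the epsilon subunit of the central stalk. It measured 8.40 and 7.32 in TAC_BIX, 9.15 and 9.25 in TAC_DMSO, and 9.82 and 9.59 in sham. Its TAC_BIX arrays differed by more than a log2 unit, and it was 3.60-fold lower than sham (-1.85 ± 0.33; adjusted p = 0.0263). The other F1 genes were not called. Atp5b, the beta subunit where ATP is made, read 14.72 and 14.72 in TAC_BIX, 14.81 and 14.67 in TAC_DMSO, and 14.79 and 14.98 in sham (-0.17 ± 0.17; adjusted p = 0.575). Atp5c1, the gamma subunit, and Atp5d, the delta subunit, differed from sham by 0.19 and 0.21, and Atp5a1, the alpha subunit, by -0.14. A second, dimmer probe of Atp5a1 differed by -2.09, so its transcripts gave no single value.

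The c ring, which turns as protons pass, is encoded by genes whose mature proteins are identical. Atp5g2 measured 11.19 and 10.83 in TAC_BIX, 11.81 and 11.93 in TAC_DMSO, and 11.72 and 12.11 in sham, and fell by 0.90 ± 0.21 against sham (adjusted p = 0.0485). Atp5g3 read 14.95 and 14.91 in TAC_BIX, 14.78 and 14.62 in TAC_DMSO, and 14.71 and 14.90 in sham, near the highest signal, and differed by 0.13 ± 0.17 (adjusted p = 0.682). TAC_BIX arrays were thus lowest for Atp5g2 and highest for Atp5g3, although with arrays scaled to one median Atp5g3 turned to -0.43 against sham. Of the peripheral stalk, which holds the head still, Atp5j and Atp5h differed from sham by -0.72 ± 0.18 and -0.69 ± 0.18 (adjusted p = 0.0544 and 0.0600). Dimmer probes of Atp5j differed by -0.29 and -2.00. Atp5o and Atp5pb differed from sham by -0.22 and 0.10.

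Differences in TAC_BIX against sham varied with the signal of the probe. Members with a mean log2 signal under 10 had a median of -1.25 with 7 of 10 called, Cox6b2 among them, those between 10 and 13 had -0.995 with 11 of 15 called, those between 13 and 14 had -0.60 with 6 of 25 called, and those at 14 or more had -0.30 with 1 of 20 called. All genes in the same ranges, members included, had medians of -0.014, 0.058, 0.061 and -0.0035. Called lower in these ranges were 296 of 8927, 106 of 1433, 9 of 114 and 1 of 64 of all genes. Within complex I, the 13 accessory genes between 13 and 14 had a median of -0.70 (-1.21 to 0.34) with 5 called, and the 4 core genes in that range had 0.0036 (-0.26 to 0.072) with 0 called. With arrays scaled to one median these medians were -1.11 and -0.41. The ranges overlapped, and the difference between the positions was not tested. In 23 members with several kept probes, the dimmest probe gave a lower difference than the brightest in 15, with medians of -0.90 for the dimmest and -0.68 for the brightest. All probes were below 0 in 19 of the 23, and probes disagreed in sign in Atp5o, Atp5pb, Ndufb8 and Ndufv3.

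**Figure D5:**
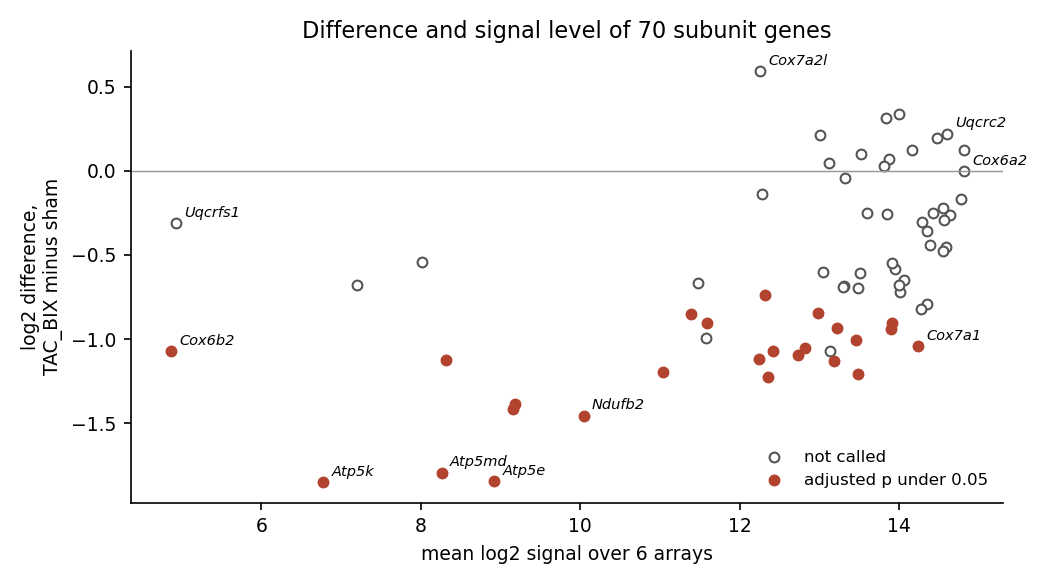
Log2 difference of TAC_BIX minus sham against the mean log2 signal over 6 arrays for 70 subunit genes; filled points have a limma adjusted p under 0.05. The 20 genes at 14 or more have a median of -0.30, and the 10 genes under 10 have a median of -1.25.

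Genes of oxidative phosphorylation outside the symbol rule were read in the same fit. Of 4 complex II genes 1 was called lower in TAC_BIX against sham, Sdha, the flavoprotein subunit, which was detected on the sham arrays only and so had to differ once kept. It had 4.62 and 4.57 in TAC_BIX, 4.75 and 4.60 in TAC_DMSO, and 5.59 and 5.38 in sham, near the detection limit. Sdhb, Sdhc and Sdhd differed from sham by 0.04, -0.36 and 0.06. Cycs, which encodes cytochrome c, and Cyc1, which encodes cytochrome c1, differed by 0.20 and 0.27 and did not pass. Of 8 genes of mitochondrial DNA measured 0 were called, with a median of -0.22 in TAC_BIX against sham. Their differences went both ways, from -0.96 to 0.65, with 5 below 0 and 3 above. The complex I gene ND5 had the smallest p (-0.96, adjusted p = 0.0910).

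Of 41 assembly factors 3 fell in TAC_BIX against sham and 0 rose, beside 3.91% of all genes called lower and 2.74% higher. Their median was -0.078. Cox17, the copper chaperone of complex IV, measured 12.15 and 11.98 in TAC_BIX, 12.83 and 12.77 in TAC_DMSO, and 13.20 and 13.17 in sham (-1.12; adjusted p = 0.0218). Cox20, a chaperone of the mitochondrially encoded subunit 2 of complex IV, fell by 1.37, and Ndufaf2, an assembly factor of complex I, by 1.04 (adjusted p = 0.0233 and 0.0318). Subunit-related genes outside the symbol rule included Ndufab1, the acyl carrier protein, with -0.25, and Atpif1, the inhibitor of ATP synthase, with -0.60 (adjusted p = 0.431 and 0.0819). Of 17 regulators of mitochondrial transcription 0 were called in any comparison. In TAC_BIX against sham 10 lay above 0 and 7 below, with a median of 0.066. At an unadjusted p under 0.05, 2 were higher and 1 was lower, beside 1384 and 1397 of 10538 genes. In TAC_BIX against TAC_DMSO 14 lay above 0 and 3 below, with a median of 0.21. There 5 were higher and 0 lower at that threshold, beside 963 and 1127 of all genes. In TAC_DMSO against sham 5 lay above 0 and 12 below, with a median of -0.20. There 0 were higher and 4 lower at that threshold, beside 1139 and 1225 of all genes. Ppargc1a, the coactivator PGC-1 alpha, measured 10.84 and 10.99 in TAC_BIX, 10.03 and 10.47 in TAC_DMSO, and 10.41 and 9.94 in sham. Its TAC_BIX values were the highest, and it differed from sham by 0.74 (adjusted p = 0.100). Nrf1, the factor of that name, differed by -0.57, Esrra by -0.46 and Tfam, which binds mitochondrial DNA, by 0.29 (adjusted p = 0.164, 0.237 and 0.330).

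Markers of cell types were read beside these differences. For the marker counts that follow, 3.91% of all genes were called lower and 2.74% higher in TAC_BIX against sham. Of 14 cardiomyocyte markers 1 was called in TAC_BIX against sham, Tnni3, cardiac troponin I, which fell by 0.80 (adjusted p = 0.0391), and the median was 0.019. Their summed linear signal was 274769 and 279486 in TAC_BIX, 242827 and 264597 in TAC_DMSO, and 267671 and 281625 in sham. TAC_BIX and sham overlapped. The summed signal of the 70 members was 765675 and 684381 in TAC_BIX, 853476 and 872677 in TAC_DMSO, and 969733 and 926070 in sham, and here no groups overlapped.

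Of 14 fibroblast markers 2 rose in TAC_BIX against sham, Lum and Mfap5, which encode matrix proteins (1.93 and 2.45; adjusted p = 0.0276 and 0.0315), and the median was 1.08. Their sum was 15864 and 25536 in TAC_BIX, 18945 and 11177 in TAC_DMSO, and 11193 and 11374 in sham. Of 11 endothelial markers 1 rose (Pecam1, 1.24; adjusted p = 0.0327), with sums of 4323 and 5457 in TAC_BIX, 4218 and 5055 in TAC_DMSO, and 3779 and 3040 in sham, and Fabp4 was not detected. Of 7 smooth muscle and pericyte markers 1 rose (Rgs5, 3.29; adjusted p = 0.0195), with sums of 26004 and 32241 in TAC_BIX, 25562 and 19741 in TAC_DMSO, and 16717 and 19767 in sham, and Cnn1 was not detected.

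Of 12 macrophage and leukocyte markers 0 were called, with sums of 7942 and 11699 in TAC_BIX, 15539 and 8313 in TAC_DMSO, and 6531 and 10165 in sham, and the pan-leukocyte gene Ptprc was not detected. Of 6 erythroid markers 0 were called, and their sums varied within groups, at 19615 and 4473 in TAC_BIX, 29373 and 53508 in TAC_DMSO, and 16944 and 1957 in sham. TAC_BIX replicate 2, on which 57 of 70 subunit genes were lower than on replicate 1, also had the highest fibroblast, endothelial and smooth muscle sums of the 6 arrays. The part of these cell types in the subunit differences was not tested.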

How the data were processed

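RNA of cardiomyocyte-enriched cells was hybridised to 6 Illumina expression arrays, 2 per group. The submitters' processing notes name limma, lumi and GenomeStudio 2011.1, without their roles. The authors deposited, per probe and array, a signal intensity, not normalized between arrays, and a detection p-value. Their processed table, used as an alternative, was deposited as log2 values with one distribution on all arrays and a median of 7.19.

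From the intensities, background was corrected from the detection p-values and arrays were quantile normalized with neqc of limma 3.58.1 (R 4.3.3; offset 16). Probes detected (p-value under 0.05) on 2 or more arrays were kept (19273 of 45281, 16446 with 1 gene), and the probe with the highest mean stood for its gene. All 6 arrays entered a single lmFit and eBayes fit with a mean for each group (3 residual degrees of freedom, two-sided tests). Adjustment was by Benjamini-Hochberg over 10538 genes, with calls at an adjusted p under 0.05. Each difference is the group named first minus the other, given with its standard error (SE) from the fit. Where a gene was not detected on both arrays of the lower group, a bound ("at least") was set against the lowest detected signal. The number of arrays limits the precision. The procedure was tested on simulated data.

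Members and context lists were chosen with earlier results of these data known. Members named are those called, the 5 with the smallest p in each comparison, the 2 largest differences of each complex in each comparison, tissue isoforms, and members whose probes disagree in sign; context genes named are the called ones and up to 4 with the smallest p of a list. Other genes, named to complete a functional group, were chosen after their values were seen. Promoters and gene positions are RefSeq's (GRCm38.p6). Alternatives were another background correction, offset, normalization, table, filter, probe rule, variance model, replicate block, pairwise fits, and leaving out each array.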

Additional observations from a re-analysis of the deposited data

How the results depend on the processing

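With 2 arrays per group, detection and the spread of single arrays limit these calls, and differences of the brightest probes can be compressed. In all 17 alternative settings the members' median kept its sign in each comparison, but some settings could not move it. These were the trend and robust prior, the replicate block, fitting the 2 groups alone, and leaving out an array of the group not compared. In TAC_BIX against sham, members called lower numbered 25 as reported, 48 with median scaling, 42 with an intensity trend and robust prior, 41 with log2 quantile normalization without background correction, 38 with an offset of 50, 12 with no detection filter and 10 with the replicate block; 1 member, Cox7a2l, was called higher with the authors' processed values, the trend, quantile normalization alone or the offset of 50, in place of 0. Leaving out 1 array, which leaves a group of 1 array assumed to vary like the others, gave 0 to 23 members lower and medians of -0.80 to -0.52, and median scaling gave -1.04. All genes called, 701 as reported, were 1294 with median scaling, 1136 with the trend, 369 with no filter, 253 with the replicate block and 0 to 738 with 1 array left out.

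In TAC_BIX against TAC_DMSO, members called lower numbered 0 as reported, 27 with the trend, 24 with quantile normalization alone, 21 with median scaling, 20 with the authors' values, 19 with the offset of 50 and 12 with detection on all 6 arrays. All genes called, 0 as reported, were 699, 709, 380, 642, 563 and 359 in the same order, 1 with the dimmest kept probe of each gene, a setting chosen after seeing the data, and 0 to 6 with 1 array left out. The median was -0.78 with median scaling and -0.61 to -0.32 with 1 array left out. In TAC_DMSO against sham, members called lower numbered 2 with the trend and 1 each with quantile normalization alone, median scaling, the offset of 50, the mean of kept probes and the dimmest probe, in place of 0, and the median was -0.27 with median scaling. All genes called, 43 as reported, were 426 with the trend, 284 with quantile normalization alone, 275 with the offset of 50, 151 with median scaling, 134 with detection on all arrays, 93 with the authors' values, 72 with the dimmest probe, 1 with no filter, 0 when the 2 groups were fitted alone, 0 with the replicate block and 0 to 166 with 1 array left out. The cause of these changes was not tested, except that leaving out an array removes samples.

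Some members near 0 changed sign. Median scaling turned Atp5g3 (-0.43) and Uqcrc1 (-0.44) in TAC_BIX against sham, Cox6b2 (-0.15) and Cox7a2l (-0.045) in TAC_BIX against TAC_DMSO, and Cox6a2 (-0.34), Ndufa4 (-0.16) and Uqcrh (-0.16) in TAC_DMSO against sham. The dimmest probe turned Cox6b1 (0.11) and Ndufc2 (-0.26) in the last comparison, and the mean of probes Ndufc2 (-0.080). With 1 array left out, some differences crossed 0. In TAC_BIX against sham Cox6a2 ranged from -0.13 to 0.13 and Uqcrc1 from -0.094 to 0.16. In TAC_BIX against TAC_DMSO Cox6a2 ranged from -0.11 to 0.073 and Cox8b from -0.29 to 0.077. In TAC_DMSO against sham the ranges were -0.24 to 0.15 for Atp5g2, -0.070 to 0.070 for Cox4i1, -0.11 to 0.15 for Cox6a2, -0.10 to 0.0037 for Ndufa11, -0.075 to 0.25 for Ndufb4, -0.11 to 0.066 for Ndufb7 and -0.068 to 0.17 for Uqcrh. Of the 25 calls, 8 of the genes, Atp5k, Cox7a2, Cox7b, Ndufa5, Ndufa6, Ndufb2, Ndufb3 and Ndufs5-ps, held in 14 of 17 settings each, and Atp5g2 and Cox7a1 in 8 each. The 17 settings are not independent in this comparison, where fitting the 2 groups alone and leaving out either TAC_DMSO array gave the same counts. The replicate numbers are shared by all groups. Samples with the same number deviated with correlations of 0.086 (TAC_BIX and sham), -0.16 (TAC_BIX and TAC_DMSO) and -0.24 (TAC_DMSO and sham). With so few arrays per group, these correlations cannot decide whether such samples share more than a number. Every group holds an array of each number, so the replicate block could not move the medians of -0.67, -0.45 and -0.12. It did lower the members called in TAC_BIX against sham from 25 to 10.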
